A study of Mus musculus with 12 samples.

Results

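Cytosolic ribosomal protein genes are described here across 4 groups of mouse regulatory T cells (Tregs), the CD4+ Foxp3-expressing cells that restrain immune responses. The set was chosen by symbol and holds every gene named Rpl or Rps plus a number, with an optional a, x, y or l ending, together with Rpsa, Rplp0, Rplp1 and Rplp2. Pseudogenes marked as such in the symbol and the S6 kinases were left out. This gave 84 of the 24421 symbols in the table, of which 77 encode the standard proteins (46 of the large and 31 of the small subunit) and 7 are copies of another member (Rpl3l, Rpl7l1, Rpl10l, Rpl22l1, Rpl39l, Rps4l and Rps27l). The filter on low counts kept 81 of the 84, and these 81 were tested among 12461 genes. Rpl10l had no count in any library, Rpl3l was at 0 in all libraries except 1, and Rpl39l did not exceed 0.61 CPM (counts per 1e6 counts in the library, after scaling). Rpl3l is known from striated muscle, and Rpl10l and Rpl39l from testis.

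A cytosolic ribosome joins a small subunit, which reads the messenger RNA, to a large subunit, which forms the peptide bond. Each ribosomal protein is present in about equal numbers, so its mRNAs form one of the most abundant and most tightly coordinated sets of a cell. Many of these mRNAs begin with a run of pyrimidines, the terminal oligopyrimidine tract, through which mTORC1 and LARP1 control their translation and stability. MYC is known to raise transcription of ribosomal protein genes. In T cells, interleukin-2 signals through its receptor to STAT5 and to mTORC1, and CD25 is the chain that gives this receptor high affinity.

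The study deleted CD25, encoded by Il2ra, in Tregs of mice. All animals carried R26tomato, a red fluorescent reporter, and Foxp3eGFPERT2, a tamoxifen-inducible allele active where Foxp3 is, both homozygous, and all received 2 mg/kg tamoxifen intraperitoneally for 5 days. Cells were taken 10 days after induction. The 4 groups, each of 3 libraries, were WT central Tregs (cTreg, gated CD62Lhi), WT effector Tregs (eTreg, gated CD62Llo), and the same 2 subsets with CD25 deleted (KO cTreg and KO eTreg), which were gated CD25lo as well. KO and WT groups thus differ in the CD25 gate as well as in the deletion, and these cannot be told apart. Below, CD25 loss and the KO effect stand for both together. Groups follow the sample titles and cell types. The genotype field gives CD25FL/FL to the samples titled WT and CD25WT/WT to those titled KO, the reverse of what the titles say. Each library pooled spleen and lymph nodes of 2 to 3 mice, so a library is a pool rather than 1 animal. The sources used here give neither age nor sex of the mice.

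The libraries held 14567313 to 19121577 counts. Il2ra gave 576, 523 and 580 CPM in WT cTreg, 122, 112 and 113 in KO cTreg, 464, 562 and 542 in WT eTreg and 125, 116 and 132 in KO eTreg. These values go with the titles. The samples titled KO were also gated CD25lo, so Il2ra alone cannot settle the conflict with the genotype field. Summed markers of other cells were low against 2694 to 4262 CPM for 6 Treg markers: 7.63 to 15.3 CPM for B cells, 5.38 to 15.8 for myeloid cells, 0.288 to 6.87 for dendritic cells, 7.45 to 27.1 for NK and CD8 T cells and 0.665 to 11.1 for red cells and platelets. The dendritic sum moved with the subset, from at most 1.52 CPM in cTreg to at least 4.20 in eTreg libraries, and others moved with CD25 loss. The NK and CD8 sum was 13.8 to 17.1 CPM in WT cTreg and 22.5 to 27.1 in KO cTreg. The B cell sum was 11.4 to 12.8 in WT cTreg against 7.63 to 9.63 in KO cTreg, and 14.8 to 15.3 in WT eTreg against 9.30 to 11.3 in KO eTreg. The part of these in the results below was not tested. WT cTreg replicate 1 stood apart, with the highest level of ribosomal protein mRNA of the 12 libraries. In the comparisons below that use this library, the members' median fold change is also given without it. Most other values, such as counts by order or overlap and medians under other processing, include it.

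Ribosomal protein mRNAs were highest in WT cTreg, lower in KO cTreg, lower again in WT eTreg and lowest in KO eTreg. The 84 genes took 5.22%, 4.79% and 4.68% of all counts in the WT cTreg libraries, 3.98%, 4.14% and 4.13% in KO cTreg, 3.56%, 3.54% and 3.59% in WT eTreg and 3.02%, 3.09% and 2.96% in KO eTreg. No library of one group overlapped a library of another. The group means were 4.90% ± 0.287 (SD, n = 3), 4.08% ± 0.0896, 3.56% ± 0.0267 and 3.02% ± 0.0625, in the same order. Counting error on these shares was small: the exact binomial (Clopper-Pearson) 95% interval of the highest was 5.21% to 5.23%, and such intervals cover counting error only. Both subunits moved together, the large one from 2.59% to 2.89% in WT cTreg down to 1.61% to 1.70% in KO eTreg, and the small one from 2.09% to 2.33% down to 1.34% to 1.39%.

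The ribosomal RNA precursor Rn45s moved in the same direction. It took 22.4% to 24.4% of counts in WT cTreg, 18.1% to 18.5% in KO cTreg, 4.11% to 4.34% in WT eTreg and 3.19% to 3.32% in KO eTreg. The library kit depletes ribosomal RNA, so the amount in the cells and the completeness of depletion cannot be told apart. With Rn45s left out of the total, the mean member shares were 6.42%, 4.99%, 3.72% and 3.12%, so the order held and the subset difference grew. In bulk RNA of this kind, fewer cells with high levels and less RNA in each cell cannot be told apart.

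**Figure D1:**
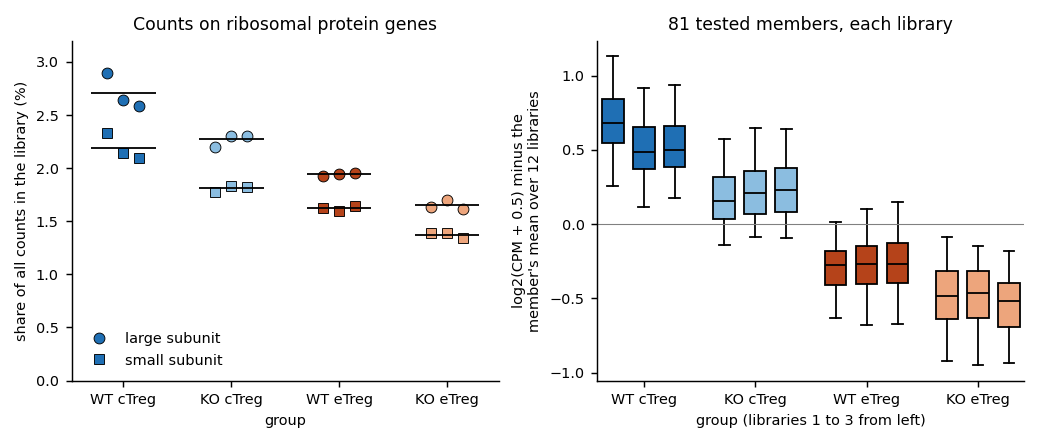
Left, share of all counts (%) on large-subunit (circles) and small-subunit (squares) genes in each library, with the mean of 3 libraries as a line. Right, log2(CPM + 0.5) of the 81 tested members minus each member's mean over the 12 libraries (boxes, quartiles and median; whiskers, 5th to 95th percentile): the medians fall from 0.68, 0.49 and 0.50 in WT cTreg to -0.49, -0.47 and -0.52 in KO eTreg.

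The order was shared by nearly all members. By mean CPM, 72 of the 81 tested genes ran WT cTreg, KO cTreg, WT eTreg, KO eTreg from high to low, as did 16.9% of all 12461 genes tested. Fold changes below are on the log2 scale from edgeR's quasi-likelihood test with TMM scaling, and a gene was called at a Benjamini-Hochberg adjusted p under 0.05 over all 12461 genes. In each of the 4 comparisons between 2 groups the called members were lower, with 1 exception in each subset comparison, and 51 of the 81 were called lower in all 4, as were 1.74% of all genes tested. The WT cTreg libraries enter both the KO comparison in cTreg and the WT subset comparison, so these are not independent of each other.

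Among the members in the RefSeq promoter table (63 of 84, build GRCm38.p6), 38 (60.3%) had a pyrimidine tract at the transcription start, defined as a C followed by C or T for 5 or more bases in all, on the transcript strand, beginning within 10 bases of an annotated start. The same held for 32.6% of all 27025 genes in that table and for 35.1% of 9160 tested genes that are not members. The first windows below are from 2 of the members that fell most between subsets (Rplp2 and Rps10), the next from the most abundant per length (Rps27), and the last from members not called lower in WT eTreg (Rpl39 and Rps27l) or with no tract (Rpl7l1). Each shows 30 bases, 10 before the annotated start and 20 from it on, 5′ to 3′ on the transcript strand, with the tract in capitals.
Rplp2, chr7:141447641-141447670, plus strand: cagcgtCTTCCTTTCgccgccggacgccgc
Rps10, chr17:27635225-27635254, minus strand: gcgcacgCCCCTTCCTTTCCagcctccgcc
Rps27, chr3:90213629-90213658, minus strand: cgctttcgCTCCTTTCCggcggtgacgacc
Rpl39, chrX:37085203-37085232, minus strand: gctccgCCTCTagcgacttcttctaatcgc
Rps27l, chr9:66946076-66946105, plus strand: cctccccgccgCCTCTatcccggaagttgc
Rpl7l1, chr17:46782637-46782666, minus strand: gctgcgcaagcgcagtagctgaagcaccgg

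Members with and without a tract by this definition had similar medians, given as a description with no test. The definition depends on the annotated start. A pyrimidine run that began more than 10 bases before the start was not counted, as for Rpl7a. Any of several annotated starts sufficed, as for Rps19. Members without a counted tract may thus still carry one. Of the 60 tested members in the promoter table, the 35 with a tract had a median log2 fold change of -0.82 between WT subsets and the 25 without had -0.79. For KO against WT in cTreg the medians were -0.37 and -0.35. Between the subsets in KO cells they were -0.74 in both sets, and for KO against WT in eTreg -0.23 and -0.21. In the 300 bases from 250 before to 50 after the start, searched on both strands, the ETS motif CCGGAAG was in 26 of 63 members (41.3%), against 9.93% of all genes and 21% of tested genes that are not members. The YY1 motif AAGATGGC was in 6 (9.52%), against 3.19% of all genes and 5.48% of tested non-members. The E-box CACGTG, which MYC can bind, was also in 6 (9.52%), against 8.09% of all genes and 11.8% of tested non-members. The GC box GGGCGG was in 39 (61.9%), against 38.2% and 68.6%, and TATAAA in 7 (11.1%), against 15.7% and 8.26%. A match describes letters, not a bound site.

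The first comparison asked how ribosomal protein mRNAs differ between KO and WT central Tregs. Of the 81 tested members, 75 fell in KO cTreg and 0 rose, where 12.6% of all genes tested were called lower and 14.8% higher. At an unadjusted p under 0.05, 76 were lower and 0 higher. DESeq2's Wald test called 76 lower and 0 higher. The median log2 fold change was -0.36 against 0.001 over all genes tested, with quartiles of -0.43 and -0.30. For 75 members all 3 KO libraries lay below all 3 WT libraries, which held for 19.5% of all genes. The small subunit had 30 of 31 standard members lower (median -0.37) and the large subunit 43 of 46 (median -0.36). Without WT cTreg replicate 1, 72 members were called and the median was -0.30.

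Rpl15, a large-subunit protein, had the largest called fall. It gave 157, 255 and 198 CPM in WT cTreg and 125, 133 and 122 in KO cTreg, and the groups did not overlap although the WT libraries differed widely. Its log2 fold change was -0.69 ± 0.139 (SE; edgeR adjusted p = 0.0048), and with only the 6 cTreg libraries it was not called (edgeR adjusted p = 0.057). Rpl12, which sits at the base of the stalk of the large subunit, gave 1553, 1352 and 1373 CPM in WT cTreg against 954, 970 and 994 in KO cTreg. Its fall of 0.55 ± 0.0548 on the log2 scale had the smallest adjusted p of the set (edgeR, 1.84e-06). Rps19, the gene most often mutated in Diamond-Blackfan anaemia, fell by 0.54 ± 0.0667, from 741, 660 and 637 CPM to 432, 490 and 475. Rpl36a fell by 0.54 and Rps7 by 0.50.

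The smallest called falls were those of Rpl13a (-0.24), Rpl29 (-0.22), Rpl41 (-0.21), Rpl24 (-0.19) and Rpl7l1 (-0.16). Rpl41 passed narrowly, with an adjusted p of 0.0494 in edgeR and overlapping groups. Without WT cTreg replicate 1, Rpl24 (-0.13, edgeR adjusted p = 0.085), Rpl29 (-0.14, edgeR adjusted p = 0.096) and Rpl41 (-0.12, edgeR adjusted p = 0.23) were no longer called. Without KO cTreg replicate 1 the same 3 lost their calls, at edgeR adjusted p of 0.065, 0.063 and 0.17. Rpl7l1 lost its call when replicate 2 of WT cTreg was left out, and likewise replicate 3 of either genotype (edgeR adjusted p = 0.063, and 0.061 in WT and 0.12 in KO). Rpl41 lost its call without any 1 library other than replicate 2 of WT cTreg. Library-size scaling also left Rpl24, Rpl29, Rpl41 and Rpl7l1 uncalled. The 6 members not called were Rpl17, Rpl28, Rpl7a, Rps2, Rps4l and Rps27l. Rpl17 had the lowest estimate of all, -0.87, but with an SE of 0.477, because its libraries scattered from 132 to 366 CPM in WT cTreg and from 89.5 to 169 in KO cTreg. Of its 50-base stretches, 78.7% also occur in other annotated genes (51 of them), and of those of Rpl7a 81.2% (120 genes). Whether such sharing bears on the scatter was not tested. Across the 81 members this shared share ranged from 0 to 98.6% (median 43.9%, 35 members over 50%). It had a Pearson correlation of -0.05 with the log2 fold change across members (n = 81 genes measured in the same libraries).

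Other measurements moved with CD25 loss in the same cells. In KO cTreg, the effector-subset markers Klrg1, Icos and Cd44 were higher by 2.201, 1.93 and 0.77 on the log2 scale, Ccr7, a lymph node homing receptor, fell by 0.61. Of the 6 Treg markers, Cd4, Ikzf2 and Ctla4 rose by 0.47, 0.40 and 0.32, Il2ra and Foxp3 fell by 2.28 and 0.79, and Cd3e had 0.11 (edgeR adjusted p = 0.13). Their part in the fall of ribosomal protein mRNA was not tested.

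The same question in effector Tregs gave a smaller change in the same direction. In KO eTreg, 53 of the 81 members fell and 0 rose, where 6.65% of all genes tested were called (3.4% lower and 3.25% higher). The median log2 fold change was -0.22 against 0.007 over all genes, and the estimate was below 0 for 81 of 81. For 71 members the 3 KO libraries lay below the 3 WT libraries, which held for 11.7% of all genes. The count moved when single libraries were left out: it was 18 without KO eTreg replicate 3, 22 without WT eTreg replicate 3, 27 without WT eTreg replicate 2, 33 without KO eTreg replicate 1 and 34 without WT eTreg replicate 1, and at most 66 without any other library, while the median stayed between -0.23 and -0.20. With the replicate number as a block it was 47 over 12 libraries and 74 in the 6 eTreg libraries, which without the block gave 67.

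Rpl12 again led, with 684, 653 and 683 CPM in WT eTreg and 547, 528 and 513 in KO eTreg (log2 fold change -0.35 ± 0.055; edgeR adjusted p = 0.0010). Rpl36a and Rps19 fell by 0.34 each, Rps26 by 0.31 and Rpl14 by 0.30. Of these 5, Rpl12, Rps19 and Rpl36a were also among the 5 largest called falls in cTreg. The smallest called falls were those of Rpl18 (-0.19), Rpl26 (-0.19), Rpl13a (-0.19), Rps23 (-0.19) and Rpl30 (-0.18). The KO effects in the 2 subsets, which share no library, had a Pearson correlation of 0.44 across the 81 members and 0.56 across the 12380 other genes.

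For 74 of 81 members the KO effect was lower in cTreg than in eTreg, as for 50.1% of all genes tested. The difference itself, tested as an interaction, had a median of 0.15 over members against 0.001 over all genes. By edgeR 0 members were called higher and 0 lower, where 3.8% of all genes were called (0.803% higher), and the smallest adjusted p of a member was 0.069. At an unadjusted p under 0.05, 28 members were higher and 0 lower, where 6.66% of all genes were higher. DESeq2 called 6 members higher and 0 lower. Without WT cTreg replicate 1 the median was 0.089. Passing in cTreg and not in eTreg, as 22 members did, is thus not shown to be a difference between subsets.

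**Figure D2:**
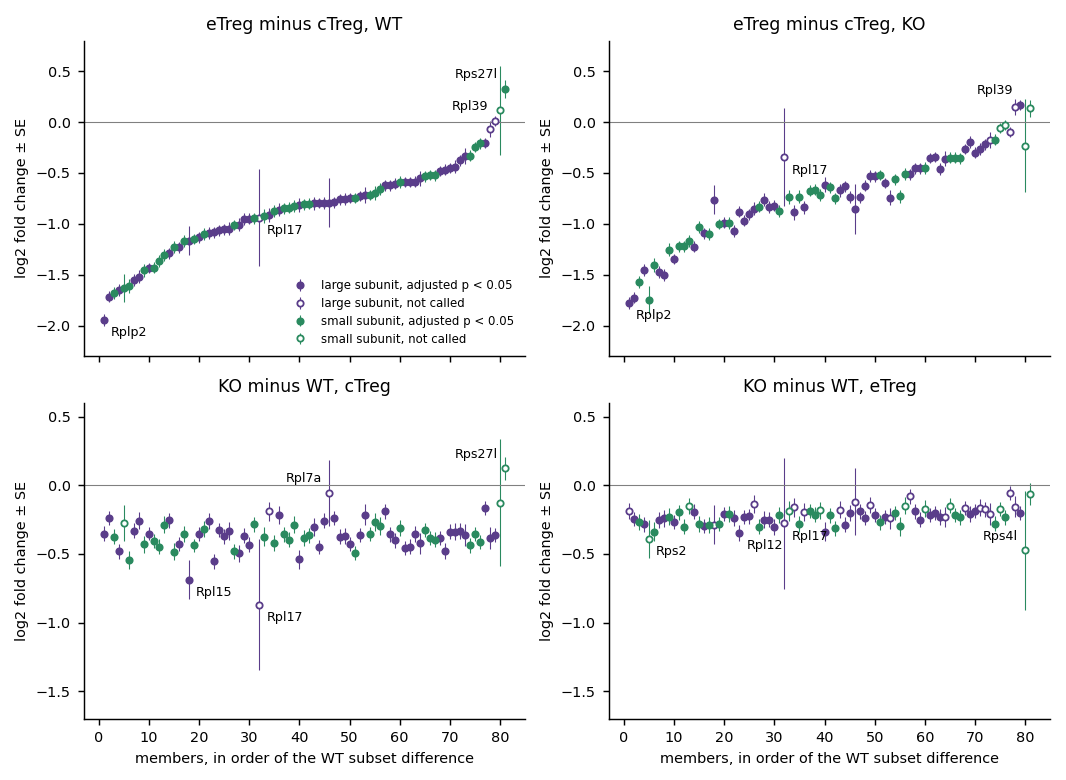
Log2 fold change ± SE of each tested member in the 4 comparisons, with members in the order of the WT subset difference (x axis, rank 1 to 81), purple for the large and green for the small subunit, filled where the edgeR adjusted p was under 0.05. The subset differences span -1.94 to 0.33 in WT cells, whereas the KO effects lie between -0.87 and 0.12 in cTreg and between -0.47 and -0.06 in eTreg.

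The comparison of subsets gave the largest and most uneven change. In WT cells, 76 of the 81 members were lower in eTreg than in cTreg and 1 was higher, where 35.8% of all genes tested were called lower and 35.7% higher. The median log2 fold change was -0.81 against 0 over all genes. In KO cells, 72 members were lower and 1 higher (35.8% and 36.1% of all genes), with a median of -0.73. The groups did not overlap for 76 members in WT and 74 in KO cells, against 37.6% and 37.1% of all genes. For 1 member in each genotype eTreg lay above cTreg without overlap, as for 37.4% of all genes in WT and 37.5% in KO cells. The small subunit had all 31 standard members lower in WT cells and 29 in KO cells, and the large subunit 44 and 43 of 46. Without WT cTreg replicate 1 the WT median was -0.74. The WT and KO subset differences, which share no library, had a Pearson correlation of 0.97 across the 81 members and 0.88 across other genes, so which members fell most was alike in both genotypes.

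The 3 stalk genes were among the members that fell most. Rplp0 anchors the stalk to the large subunit, and Rplp1 and Rplp2 form its flexible arms, which recruit the elongation factors. Rplp2 (chr7:141447370-141451585, GENCODE vM21 on mm10) gave 645, 581 and 562 CPM in WT cTreg, 457, 474 and 470 in KO cTreg, 158, 155 and 153 in WT eTreg and 144, 133 and 131 in KO eTreg. The 4 groups did not overlap, and the step between subsets was far larger than the steps between genotypes. Its subset difference was -1.94 ± 0.0564 in WT cells (edgeR adjusted p = 1.48e-13) and -1.78 ± 0.0564 in KO cells. Rplp1 (chr9:61913284-61914542) fell by 1.72 in both genotypes, from 993, 875 and 914 CPM in WT cTreg to 283, 271 and 292 in WT eTreg. Rplp0 (chr5:115559467-115563727) fell by 1.52 in WT cells, from 2042, 1854 and 1908 CPM in WT cTreg to 657, 713 and 655 in WT eTreg. The KO effect on the same genes was -0.35, -0.24 and -0.26 for Rplp2, Rplp1 and Rplp0 in cTreg, where the quartiles of the set were -0.43 and -0.30. In eTreg it was -0.19, -0.25 and -0.24, and Rplp2 was not called (edgeR adjusted p = 0.054), whereas it was called lower by DESeq2 (adjusted p = 0.024), with the replicate block over 12 libraries (edgeR adjusted p = 0.046) and with the block in the 6 eTreg libraries (edgeR adjusted p = 0.0044).

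Rps10, Rpl13, Rps2, Rps19 and Rpl36 fell by similar amounts, in WT cells further than Rplp0. Rps10 gave 477, 412 and 417 CPM in WT cTreg and 143, 129 and 136 in WT eTreg, a log2 fold change of -1.68. Rpl13 had -1.65, Rps2 -1.63, Rps19 -1.61 and Rpl36 -1.55 in WT cells, and in KO cells Rps10 had -1.57 and Rps2 -1.75. Rps2 was not called for KO against WT in either subset (-0.27, adjusted p = 0.16, and -0.39, adjusted p = 0.14, both edgeR).

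Several members had small subset differences, and for these the call or the sign moved with the scaling. Rpl39, a small protein at the exit tunnel, gave 373, 345 and 332 CPM in WT cTreg, 272, 266 and 278 in KO cTreg, 340, 366 and 353 in WT eTreg and 308, 313 and 299 in KO eTreg. WT eTreg overlapped WT cTreg, while KO eTreg lay above KO cTreg. The subset difference was 0.01 ± 0.0504 in WT cells and 0.17 ± 0.0506 in KO cells, where it was the 1 called rise (edgeR adjusted p = 0.0060). In WT cells Rpl39 was called higher with the length offset (0.33), with length, GC and level (0.43) and with library-size scaling (0.41). In KO cells its call was lost with the GC offset (0.05, edgeR adjusted p = 0.42) and with coding length and GC (0.08, edgeR adjusted p = 0.21). Rpl39 was lower in KO than in WT cells, like other members, by 0.36 in cTreg and 0.20 in eTreg. The smallest called falls in WT cells were those of Rpl7l1 (-0.20), Rps24 (-0.21), Rps3a1 (-0.24) and Rps15a (-0.33), all of which turn positive when libraries are scaled by their total counts, a scaling that moves the median of all genes by 0.40. In KO cells they were those of Rps15a (-0.17), Rpl23 (-0.20), Rpl7 (-0.22) and Rpl9 (-0.26), also positive under that scaling, where the median of all genes moves by 0.29. Rps24 and Rps3a1 were not called in KO cells (-0.03 and -0.06).

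The tested copies of ribosomal proteins are given beside their partners. Rps27l, a copy of Rps27 that p53 can induce, was the 1 member called higher in WT eTreg, with 15.8, 14.9 and 15.5 CPM in WT cTreg, 16.5, 16.0 and 17.8 in KO cTreg, 18.2, 20.2 and 19.5 in WT eTreg and 17.4 to 18.96 in KO eTreg. Its difference of 0.33 ± 0.085 (edgeR adjusted p = 0.0025) was -0.04 with the GC offset alone, 0.17 with length and GC (edgeR adjusted p = 0.077) and 0.12 with coding length and GC (edgeR adjusted p = 0.20), none of them called. Rps27 itself fell from 1057, 961 and 916 CPM in WT cTreg to 661, 580 and 620 in WT eTreg, a log2 fold change of -0.66. Nearly all of Rps27 (98.6% of its 50-base stretches) is shared with other annotated genes, among them Rps27rt, so reads of these cannot be told apart with certainty.

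Rpl22 is required for the development of αβ T cells and is known to repress its copy Rpl22l1. Rpl22 gave 288, 242 and 239 CPM in WT cTreg, 195, 208 and 204 in KO cTreg, 188, 185 and 194 in WT eTreg and 167, 174 and 166 in KO eTreg. Rpl22l1 gave 65.8, 62.2 and 57.7 CPM in WT cTreg, 49.9, 47.0 and 45.8 in KO cTreg, 55.6, 58.9 and 62.3 in WT eTreg and 56.7, 55.8 and 46.1 in KO eTreg. Both fell with CD25 loss in cTreg, Rpl22 by 0.34 and Rpl22l1 by 0.38. Between WT subsets Rpl22 fell by 0.44, and Rpl22l1 had -0.07 ± 0.0773 (edgeR adjusted p = 0.42). The Rpl22l1 value changed sign with the setting: it was called lower with offsets for GC (-0.69), for length and GC (-0.50), for coding length and GC (-0.79) and for length, GC and level (-0.23), and higher with the length offset (0.26) and with library-size scaling (0.33). Rpl7l1 changed less than Rpl7 in every comparison: -0.16 against -0.33 for KO in cTreg and -0.20 against -0.37 between WT subsets. These differences between partners were not tested. Rps4l, annotated as a transcribed processed pseudogene, stayed at 0.43 to 1.58 CPM in all libraries and was not called in any comparison.

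**Figure D3:**
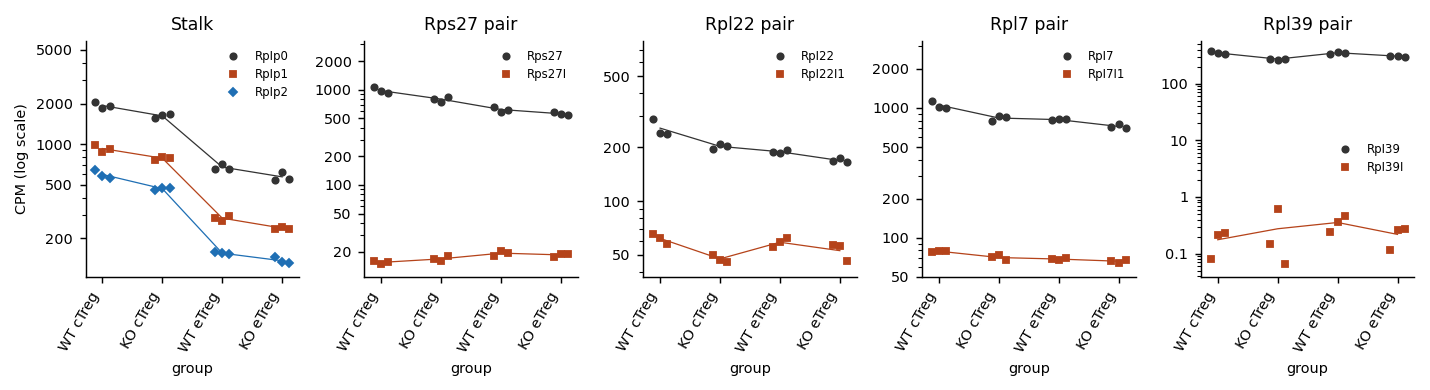
CPM (log scale) in each of the 12 libraries for the stalk genes and for 4 standard members with their copies, with lines through the group means. Rplp0, Rplp1 and Rplp2 drop between KO cTreg and WT eTreg, whereas Rpl39, Rps27l and Rpl22l1 do not.

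Members with known roles outside routine translation followed the set. Rpl5 and Rpl11, which bind Mdm2 when ribosome assembly is disturbed, fell by 0.45 and 0.33 in KO cTreg and by 0.59 and 1.05 between WT subsets. In KO eTreg Rpl5 fell by 0.22 and Rpl11 had -0.14 (adjusted p = 0.25, edgeR), and was called lower with the block in the 6 eTreg libraries (edgeR adjusted p = 0.019) and with the offset for length, GC and level (edgeR adjusted p = 0.049). Rps6, the substrate of the S6 kinases, gave 1070, 944 and 928 CPM in WT cTreg and 761, 793 and 795 in KO cTreg, a fall of 0.33 on the log2 scale. In KO eTreg Rps6 had -0.15 (edgeR adjusted p = 0.13; with that block it was called lower, adjusted p = 0.010, and in the 6 eTreg libraries without it too, adjusted p = 0.043), and it fell by 0.53 between WT subsets. Rpl38 and Rpl10a, known for effects on selected mRNAs, fell by 0.45 and 0.43 in KO cTreg, by 0.20 and 0.29 in KO eTreg and by 0.59 and 1.23 between WT subsets. The genes known from ribosomopathies (Rps19, Rps14, Rpl35a, Rps24 and Rps26) were called lower in 5 of 5 cases for KO in both subsets, and in 5 and 4 of 5 between subsets in WT and KO cells. Over all genes tested, 12.6% and 3.4% were called lower for KO in cTreg and eTreg, and 35.8% between subsets in each genotype.

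Per kilobase of transcript, the mean level over the 12 libraries was highest for Rps27 (2141 CPM per kb), Rpl13a (1363), Rps15 (1295), Rps29 (1190) and Rpl32 (1151). It was lowest among standard members for Rpl15 (64.4) and Rps20 (96.2), and among copies for Rps4l (0.974), Rpl7l1 (27.2) and Rps27l (35.0). The annotated transcripts taken for length are unusually long for Rps15a (5179 bases) and Rps20 (3706 bases), which lowers their values per kilobase. Other members, Rpl15 among them, also have a transcript longer than most members. The proteins are needed in about equal numbers, but the levels per length of the standard members spanned from 64.4 to 2141. This span depends on the transcript chosen for each gene.

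Transcript length and GC content bear on the subset difference, because other genes followed both. The tested members were short, with a median length of 851 bases against 2868 for other tested genes. They were only slightly richer in GC (median 51.6% against 50.2%), and over the coding sequence not richer (52.6% against 52.8%). Between WT subsets, the median log2 fold change of other genes ran from -0.32 in the shortest of 10 equal bins to 0.27 in the longest, and from 0.68 in the bin lowest in GC to -0.85 in the highest. In the shortest bin, up to 1041 bases, the 55 members had a median of -0.82 against -0.32 for the 1188 others. In the bin of about 54% to 56% GC, the 13 members had -1.05 against -0.41. Members lay below others in each bin that held at least 4 of them, although in the GC-richest bin the gap was small (-1.07 for 4 members and -0.85 for others).

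Among the members themselves the subset difference went with the GC of the annotated transcript and not with its length. Across 81 members its Pearson correlation with GC was -0.47 in WT and -0.56 in KO cells, and with length 0.07 and 0.09. GC-rich Rps10 (60.3%), Rpl36 (60.8%) and Rplp1 (57.3%) fell far, and GC-poor Rpl22l1 (40.6%), Rps15a (45.4%) and Rps24 (46.0%) little. These values come from a single annotated transcript per gene, which is unusually long for some members such as Rps15a and Rps20. Coding GC was not correlated with the fold change across members. Exceptions were Rpl15, at 43.2% GC with -1.17, and Rpl38, at 59.1% with -0.59. For the KO effect in cTreg, the medians of other genes stayed between -0.02 and 0.02 in all bins of length and GC. The correlation across the 81 members was 0.19 with GC (0.29 over the 77 standard ones) and -0.05 with length. For the KO effect in eTreg, the medians of other genes ran from -0.01 in the shortest bin to 0.05 in the longest and from 0.05 in the bin lowest in GC to -0.03 in the highest, and the correlation across members was -0.26 with GC and 0.04 with length.

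**Figure D4:**
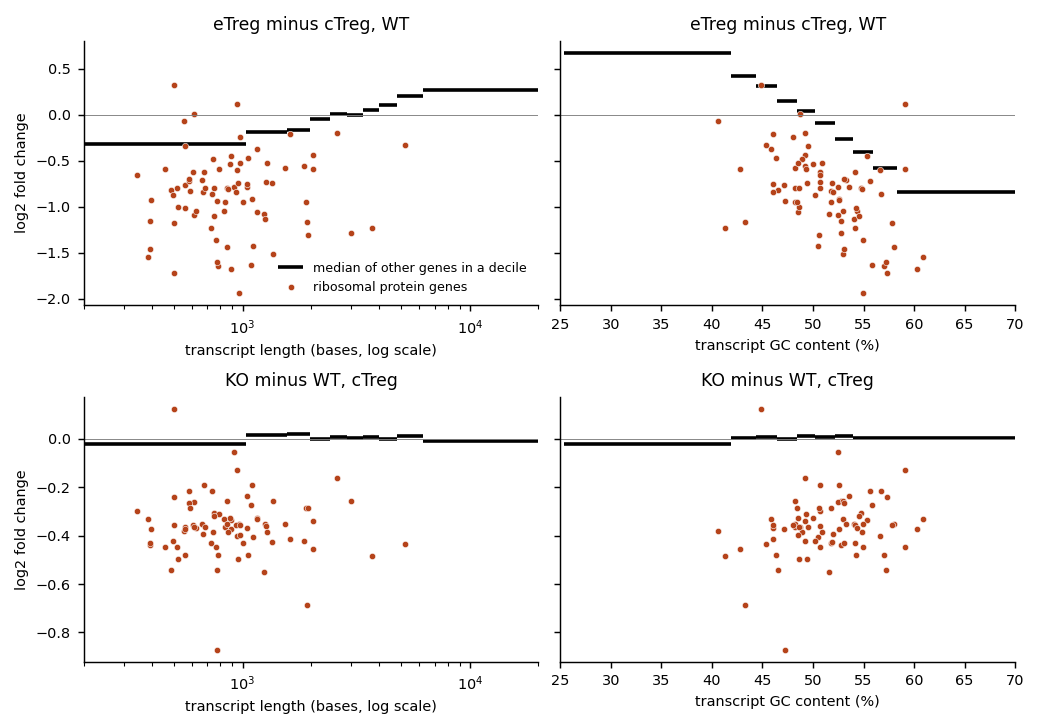
Log2 fold change of the 81 tested members (points) against transcript length (log scale) and GC content, with the median of other tested genes in each of 10 bins as black bars. Between WT subsets the bars slope from -0.32 to 0.27 with length and from 0.68 to -0.85 with GC, and for KO against WT in cTreg they stay near 0 while the members lie below.

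When an offset for length and GC, fitted on genes that are not members, was added to each library, the WT subset median moved from -0.81 to -0.64 and the KO one from -0.73 to -0.45. With this offset 71 and 65 of the members called lower before were still called lower. Length alone gave -0.54 and -0.35, GC alone -0.74 and -0.59, and coding length with coding GC -0.79 and -0.61. Adding the mean level to length and GC gave -0.31 and -0.18, with 55 and 42 members lower and 8 and 11 higher. The members lie at the upper end of that scale, at a median log2 CPM of 8.76 against 4.61 for other genes. In the highest of 10 equal bins of level, a log2 CPM of at least 7.31, the 70 members had a median of -0.80 between WT subsets against -0.01 for the 1238 other genes. The size of the subset difference thus moved with the correction, and so did the direction for some members: Rpl38 went from -0.59 to 0.26 in WT cells with length and GC, and to 0.67 with the level as well. The KO median was -0.39 in cTreg (76 lower) and -0.21 in eTreg (54 lower) with the length and GC offset.

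**Figure D5:**
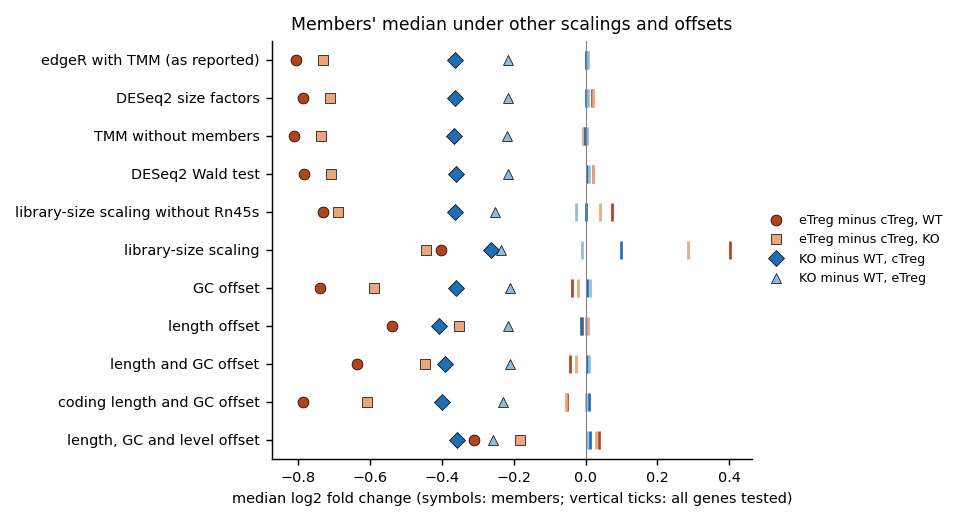
Median log2 fold change of the tested members (symbols) and of all genes tested (vertical ticks of the same colour) under other scalings and offsets. The WT subset median runs from -0.81 to -0.31 and the KO subset median from -0.74 to -0.18, whereas the KO effects stay between -0.41 and -0.26 in cTreg and between -0.26 and -0.21 in eTreg.

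Other genes of translation were examined for comparison. Their lists follow pathways but were drawn up with earlier results of these data known. In KO cTreg 12.6% of all genes tested were called lower and 14.8% higher. The shares were 3.4% and 3.25% in KO eTreg, and 35.8% and 35.7% between WT subsets. Fau and Rps27rt, ribosomal protein genes whose symbols the rule does not match, fell by 0.17 and 0.30 in KO cTreg, by 1.10 and 0.65 between WT subsets and by 0.98 and 0.51 between KO subsets. Of 35 ribosome assembly factors, 27 fell and 0 rose in KO cTreg (median -0.37), led by the RNA polymerase I subunit Polr1b (-0.66) and the nucleolar Gnl3 (-0.62), and 11 fell and 0 rose in KO eTreg. Between WT subsets they were mixed, with 21 lower and 3 higher (median -0.25): Rrp9 had -1.33 and Bysl -1.13, while Ncl had 0.43 and Nop58 0.32.

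Of 17 other mRNAs known for the pyrimidine tract, 9 fell and 0 rose in KO cTreg (median -0.15). Between WT subsets 12 were lower and 4 higher (median -0.31). Eef2, the elongation factor that moves the ribosome along, gave 4105, 3670 and 3770 CPM in WT cTreg and 1720, 1678 and 1606 in WT eTreg, and fell by 1.21. The chaperone Npm1 fell by 0.46 in KO cTreg and was higher by 0.23 in WT eTreg. Of 77 mitochondrial ribosomal proteins, 7 fell and 3 rose in KO cTreg and 0 were called in KO eTreg. The share lower in KO cTreg was 9.09%, against 12.6% of all genes tested. Between WT subsets 40 were lower and 10 higher (51.9% lower, against 35.8% of all genes), with a median of -0.21. The initiation factors moved in both directions, with 9 lower and 3 higher of 53 in KO cTreg and 23 lower and 19 higher between WT subsets. Their shares lower, 17% and 43.4%, were near the 12.6% and 35.8% of all genes tested.

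Among 13 regulators of ribosomal protein synthesis, Myc and Larp1 were the 2 called in KO cTreg, both lower. This was 15.4% of the 13, where 12.6% of all genes tested were called lower. Myc gave 157, 140 and 177 CPM in WT cTreg, 58.5, 52.1 and 55.9 in KO cTreg, 51.5, 77.5 and 79.2 in WT eTreg and 32.4, 32.4 and 34.5 in KO eTreg. It was highest in WT cTreg and lowest in KO eTreg. Its KO cTreg libraries (52.1 to 58.5 CPM) overlapped those of WT eTreg (51.5 to 79.2 CPM) and were not above them as for most members. Myc fell by 1.51 in KO cTreg, by 1.07 in KO eTreg and by 1.18 between WT subsets. Larp1, which binds the pyrimidine tract, fell by 0.37 in KO cTreg and by 0.77 between WT subsets. Whether the ribosomal protein mRNAs depend on either was not tested.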

How the data were processed

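Gene counts of 12 bulk RNA-seq libraries were read from 1 table of raw counts as deposited by the authors (whole numbers per gene symbol, not normalized). Per the labels' protocols, RNA came from a Qiagen RNeasy kit and libraries from KAPA RNA HyperPrep with RiboErase. The submitters' processing notes name HISAT2 2.2.1, Cell Ranger and mm10, with no role for each. How reads were counted, with which annotation and whether by strand is not given in the sources used here. Near-identical and overlapping genes are therefore uncertain. The table also held 27 month-like symbols, which count in the totals.

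The members and all gene lists were chosen with earlier results of these data known. Counts were fitted in R 4.3.3 with edgeR 4.0.16 (filterByExpr, TMM, robust quasi-likelihood F-test, two-sided) over all 12 libraries and 4 groups, with Benjamini-Hochberg adjustment over 12461 genes in each of 5 contrasts. Calls needed an adjusted p below 0.05. Standard errors were derived from the fold change and its F statistic (size over root F). CPM carry the TMM factors, and shares are of raw counts. Nothing in the labels says that libraries of a group are separate cultures, but each is described as a pool of 2 to 3 mice. Libraries of different subsets may come from the same mice. Libraries of a group were not duplicates. Named are the 5 highest and 5 lowest called members of each contrast, the copies with their partners and the members of listed roles; from other lists, up to 2 in each direction. The uncalled members, and the examples given for GC content and for level per kilobase, were named after their values were seen.

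Length and GC came from GENCODE vM21 (mm10) and covered all 84 members and 95.88% of genes tested. Offsets were splines with 5 degrees of freedom per library, fitted on non-members. Shared sequence was counted as identical 50-base stretches in other vM21 transcripts. Promoters came from the RefSeq table for GRCm38.p6.

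Same-numbered KO and WT eTreg libraries deviated together from their group means (correlations 0.343, 0.494 and 0.201), so their numbers were taken to pair them, as a hint from the data. KO and WT cTreg libraries did not deviate together (-0.283, -0.0639 and 0.165). Between same-numbered libraries of the 2 subsets the correlations were -0.116, -0.279 and -0.0641 in WT and 0.445, 0.187 and -0.112 in KO cells. Alternatives were DESeq2 (1.42.0) size factors and Wald test, library-size scaling, TMM without members, other filters, only the libraries compared, the replicate block, length and GC offsets, and leaving out each library. Chosen after seeing the data were the coding and level offsets, the block in eTreg alone and library totals that leave out Rn45s. The fit was tested on simulated data, for KO against WT in cTreg. It recovered 63 of 100 genes changed by 1.5-fold and 81 of 100 changed by 2-fold, and 5.88% of its calls were false. The changed genes were drawn at random from all genes tested.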

Additional observations from a re-analysis of the deposited data

Results flagged for a closer look

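The estimated KO effect on Rps27l had opposite signs in the 2 subsets, 0.12 in cTreg (edgeR adjusted p = 0.32) and -0.06 in eTreg (edgeR adjusted p = 0.74), and the difference between them, the interaction on the log2 scale, was -0.187 and was not called. The groups overlapped in eTreg, and in cTreg the KO libraries (16.5, 16.0 and 17.8 CPM) lay just above the WT ones (15.8, 14.9 and 15.5).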

How the results depend on the processing

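With 3 libraries a group, small changes depend on single libraries, and the counting method, which is not known here, decides where reads of near-identical genes go. Leaving out each library in turn, the KO cTreg results ran from 72 to 76 lower with medians of -0.392 to -0.3, the KO eTreg ones from 18 to 66 lower with medians of -0.229 to -0.2, the WT subset ones from 75 to 76 lower with medians of -0.864 to -0.743, and the KO subset ones from 72 to 73 lower and 1 to 2 higher with medians of -0.748 to -0.694. The interaction ran from 0 to 1 higher with medians of 0.089 to 0.18. The replicate block gave 74, 47, 76 and 72 members lower in the 4 comparisons, in that order, and moved no count by over 1.5 times. In KO eTreg, DESeq2 gave 60 lower and the 6 eTreg libraries alone 67.

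Library-size scaling moved the median of all genes by 0.100 for KO in cTreg, 0.402 between WT subsets, 0.285 between KO subsets and -0.116 for the interaction. The members' medians became -0.263, -0.403, -0.445 and 0.033, with 6 members higher in each subset comparison. Without Rn45s in the totals the WT subset median was -0.73, 2 members were higher between KO subsets, and the mean shares were 6.42%, 4.99%, 3.72% and 3.12%. Between WT subsets, the medians were -0.637 (length and GC), -0.538 (length; 3 higher), -0.74 (GC; 0 higher) and -0.31 (with level; 8 higher), and coding length and GC gave 0 higher. Between KO subsets they were -0.448 (4 higher), -0.352 (6 higher), -0.589 (2 higher), -0.183 (42 lower, 11 higher) and, with coding properties, -0.609 (0 higher). In the interaction, members called higher numbered 6 with DESeq2, 6 with length and GC, 7 with length, 1 with GC and 8 with coding properties. The cause of these moves was not tested.

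Reversals of named members were confined to the subset comparisons. A reversal here was a change of sign in which the value before or after the change of setting was called. Between WT subsets, library-size scaling gave Rpl22l1 0.332, Rpl7 0.03, Rpl7l1 0.201, Rps15a 0.074, Rps24 0.194 and Rps3a1 0.162. The length offset gave Rpl22l1 0.264, the GC offset Rpl38 0.078 and Rps27l -0.036, length and GC Rpl38 0.262, and the offset with level Rpl38 0.668, Rps27 0.095 and Rps3a1 0.085. Between KO subsets, library-size scaling gave Rpl22 0.022, Rpl23 0.09, Rpl7 0.069, Rpl7l1 0.19, Rpl9 0.024, Rps15a 0.113 and Rps24 0.256. The length offset gave Rpl23 0.076, Rpl38 0.06, Rpl7 0.031, Rpl9 0.085 and Rps24 0.116, the GC offset Rpl22l1 -0.51, Rpl38 0.372 and Rps27l -0.234, and length and GC Rpl22l1 -0.287 and Rpl38 0.575. Coding length and GC gave Rpl22l1 -0.609, and the offset with level Rpl38 0.893, Rpl9 0.107, Rps25 0.028, Rps27 0.149 and Rps6 0.076. Changes of sign without such a call also occurred in other comparisons. Over the settings, Rps4l ran from -0.495 to 0.213 for KO against WT in cTreg. In the interaction, Rplp1 ran from -0.126 to 0.075 and Rps26 from -0.068 to 0.132, among others. Rpl39 ran from -0.12 to 0.431 between WT subsets, with its negative values not called.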
